A study of Mus musculus with 14 samples.

Results

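The 7 genes described here mark tissue-resident macrophages of the arterial adventitia, the outer coat of the vessel: Mrc1, Lyve1, Cd163, Folr2, Timd4, Cbr2 and Stab1. They were taken by gene symbol from array values of 22180 genes, and all 7 were measured, each by 1 probe set. RNA came from male mice aged 12 weeks that had eaten a Western diet rich in fat and cholesterol for 4 weeks, starting at the age of 8 weeks. The groups were ApoE/LTbR-double deficient mice, which lack apolipoprotein E and the lymphotoxin beta receptor, and their ApoE-deficient littermates, which lack apolipoprotein E only, so that no mouse in the series carried a functional Apoe gene. Aorta with its perivascular fat was measured in 4 double-deficient and 4 ApoE-deficient samples. Blood cells bearing CD115 (the product of Csf1r, through which macrophages receive their main growth factor) were measured in 3 double-deficient and 3 ApoE-deficient preparations. They had been isolated with magnetic beads after Ficoll centrifugation, and ApoE-deficient preparations 3 and 4 were each pooled from 2 littermate samples. The labels describe neither the deleted allele nor its cell type, and they do not say whether blood and aorta came from the same mice.

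Macrophages of the adventitia are partly seeded before birth and renew themselves locally, apart from blood monocytes. Many of them carry the mannose receptor (Mrc1), the hyaluronan receptor Lyve1 and the folate receptor beta (Folr2). In mouse tissues, macrophages with Timd4, Lyve1 or Folr2 are known as a subset with little replacement from monocytes. The scavenger receptors Cd163 and Stab1 clear haemoglobin complexes and modified lipoproteins, Timd4 binds phosphatidylserine on dying cells, and Cbr2 encodes a carbonyl reductase that the mouse lung also makes in large amounts. Lyve1 and Stab1 are not restricted to macrophages, since lymphatic or sinusoidal endothelium makes them too.

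Values are given on a log2 scale on which 0 is the middle signal of that gene among all aorta arrays, or among all CD115+ arrays. Neither 2 genes nor the 2 tissues can therefore be compared by level. A difference is double-deficient minus ApoE-deficient. Array medians over all probe sets lay between -0.0077 and 0.0052, and the number of arrays limits the precision. The deleted gene averaged lower in double-deficient samples. The direction of the scale was taken from this gene, so its sign is no separate check of the labels. Ltbr was at -0.97 ± 0.34 in double-deficient and 0.68 ± 0.16 in ApoE-deficient aortas (SD, n = 4 each). In CD115+ cells it was at -0.38 ± 0.28 in double-deficient and 0.34 ± 0.25 in ApoE-deficient preparations (SD, n = 3 each). The groups did not overlap in either tissue. Such a separation downwards was seen in 467 of 22180 genes in aorta and 5.23% in CD115+ cells. The CD115+ gap lay between -0.07 in double-deficient replicate 1 and 0.07 in ApoE-deficient replicate 3. The adjusted p of Ltbr was 0.0679 in aorta and 0.976 in CD115+ cells (limma). It passed the threshold used below in neither tissue. Missing that threshold is therefore no sign that a gene is unchanged. A coarse view of level came from rounding: if the values had been single-precision log2 numbers before centring, a step of 2 to the power -20 points to signals from 8 to 16 on all arrays of a tissue. In aorta 12.0% of probe sets had this step, among them Mrc1, Lyve1, Folr2 and Cbr2 and 3 of 6 general macrophage genes looked at (Csf1r, Lyz2 and Cd68). Cd163, Timd4 and Stab1, and the macrophage genes Adgre1, Cd14 and Mpeg1, had the finer step of 2 to the power -21 there, which arises when at least some arrays lie under 8. In CD115+ cells Csf1r, Lyz2, Cd68 and Mpeg1 had the coarser step and Adgre1 and Cd14 the finer one. Lyve1 and Cd163 among the members had the coarser step, as did 7.87% of all probe sets. With 6 arrays the finer step can pass for the coarser one more easily than with 8. Since levels are lost, the labelled tissues could not be checked further against their markers.

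Sequence upstream of the starts is shown for 3 members: Timd4 and Folr2, for which every double-deficient aorta lay below the median of the ApoE-deficient aortas, and Stab1, for which every double-deficient aorta lay above all ApoE-deficient ones. Promoters of 6 of the 7 members were matched by symbol in RefSeq (build GRCm38.p6), giving 7 windows of 250 bases before a start, since Folr2 has 2 starts. Lyve1, which met the same rule as Timd4 and Folr2, was the member without an entry and could not be examined. The windows are given 5′ to 3′ on the strand of the gene. Capitals mark matches on either strand to GAGGAA (letters bound by the macrophage factor PU.1), TGCTGA (core letters of sites bound by MAF factors) and GGAA followed 2 bases later by GAAA (the composite site of PU.1 with an interferon regulatory factor), which were chosen with the sequences in view.
Timd4, chr11:46810549-46810798, plus strand: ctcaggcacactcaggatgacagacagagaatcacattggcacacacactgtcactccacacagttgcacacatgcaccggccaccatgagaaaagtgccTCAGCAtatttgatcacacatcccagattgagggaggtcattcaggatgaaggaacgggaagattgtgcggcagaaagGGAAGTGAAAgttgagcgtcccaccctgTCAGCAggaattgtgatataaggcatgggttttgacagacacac
Folr2, chr7:101857191-101857440, minus strand: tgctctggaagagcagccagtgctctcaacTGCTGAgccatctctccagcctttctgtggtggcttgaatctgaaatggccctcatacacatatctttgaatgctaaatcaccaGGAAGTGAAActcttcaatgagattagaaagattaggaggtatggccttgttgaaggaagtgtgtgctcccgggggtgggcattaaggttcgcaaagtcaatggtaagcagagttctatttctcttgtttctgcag
Stab1, chr14:31168642-31168891, minus strand: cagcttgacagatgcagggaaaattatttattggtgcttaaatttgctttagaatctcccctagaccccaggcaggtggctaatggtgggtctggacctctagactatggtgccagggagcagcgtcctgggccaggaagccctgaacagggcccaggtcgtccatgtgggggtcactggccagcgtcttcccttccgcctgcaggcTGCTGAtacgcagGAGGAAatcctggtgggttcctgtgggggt
The composite letters stood at position -72 in Timd4 and at position -136 of the Folr2 window shown, counted from the start, and in 2.3% of all 32851 RefSeq windows of this length. Stab1 held TGCTGA at -43 and GAGGAA at -30, and no matches overlapped in these 3 windows. The window of the other Folr2 start held no composite letters and 1 TGCTGA, at -19. TGCTGA was present in 16.1% and GAGGAA in 23.3% of all windows. A match is a run of letters, and no binding was measured in this series.

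The first comparison asked how the loss of the lymphotoxin beta receptor altered these markers in the aorta. The members split in 2 directions: Stab1, Mrc1, Cd163 and Cbr2 averaged higher in the double-deficient aortas, by 0.24 to 0.33 on the log2 scale, while Lyve1, Folr2 and Timd4 averaged lower, with differences of -0.55, -0.55 and -1.33. None of the 7 passed an adjusted p of 0.05 over all genes in limma, where 1 of 22180 genes did (0.00451%) and 1713 had an unadjusted p under 0.05. A difference above 0 was found in 4 of 7 members and in 52.8% of all genes. The median difference was 0.24 over the members, which was the difference of Stab1 itself, and 0.01 over all genes. Its sign rested on single arrays: it was -0.32 when double-deficient replicate 3 was left out. Leaving out ApoE-deficient replicate 3 gave -0.011 and leaving out ApoE-deficient replicate 1 gave 0.021. Among the 11090 genes of largest SD, which leave out Stab1, it was -0.14. The mean of the 7 members was 0.22, -0.27, 0.37 and -0.11 in double-deficient aortas, against 0.35, 0.34, -0.22 and 0.47 in ApoE-deficient aortas, so that the groups overlapped. On average this mean was lower in double-deficient aortas, opposite in direction to the median. Members of large spread, Cbr2 and Timd4, weigh most in this unscaled mean. In whole tissue, fewer cells of a type and less RNA per cell cannot be told apart.

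Stab1, the scavenger receptor stabilin-1, was at 0.20, 0.004, 0.12 and 0.007 in the double-deficient aortas, against -0.18, -0.25, -0.18 and -0.004 in the ApoE-deficient aortas. Every double-deficient array lay above every ApoE-deficient array, by a narrow margin between ApoE-deficient replicate 4 and double-deficient replicates 2 and 4. Such a separation upwards was seen in 2.19% of all genes. The group means were 0.08 ± 0.09 and -0.15 ± 0.10 (SD, n = 4 each) and differed by 0.24 (SE 0.08, 95% interval 0.05 to 0.42, limma), a 1.18-fold higher signal. Its unadjusted p of 0.0176 in limma placed it among the 3.91% of genes with a p under 0.05 and a higher mean in double-deficient aortas, and its adjusted p was 0.547. The exact two-sided permutation test of this gene gave 0.0286, the smallest p that 4 against 4 arrays allow. Genes of the vessel wall also averaged higher in double-deficient aortas: all 8 smooth muscle genes (median 0.31), 7 of 8 fibroblast genes (0.14), 7 of 8 endothelial genes (0.15) and 7 of 9 adipocyte genes (0.23) were above 0. Of these, 2 smooth muscle, 1 endothelial and 2 adipocyte genes had an unadjusted p under 0.05 in limma. The gene most like Stab1 over the 8 arrays was Lama4, a laminin chain of vessel basement membranes (Pearson r = 0.98). The part of wall tissue or fat in the Stab1 difference was not tested.

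Mrc1, the mannose receptor that macrophages use to take up glycoproteins, was at 0.70, -0.08, 0.25 and 0.24 in double-deficient aortas, against -0.07, -0.07, -0.14 and 0.07 in ApoE-deficient aortas. Double-deficient replicates 1, 3 and 4 lay above all ApoE-deficient arrays and replicate 2 lay among them. The difference was 0.33 (SE 0.15, 95% interval -0.03 to 0.68, adjusted p = 0.663, limma). It fell to 0.19 without double-deficient replicate 1.

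Cd163, the receptor for haemoglobin bound to haptoglobin, was at 0.73, 0.02, -0.08 and -0.02 in double-deficient aortas, against 0.25, -0.07, -1.12 and 0.33 in ApoE-deficient aortas. One array in each group stood far from the others, double-deficient replicate 1 on the high side and ApoE-deficient replicate 3 on the low side, and the groups overlapped. The difference of 0.31 (SE 0.34, 95% interval -0.47 to 1.10, limma) was -0.011 without that ApoE-deficient replicate. The 3 genes of smallest p among the ligands and partners of the members were Blvrb, Hp and Slc40a1. Hp, which encodes haptoglobin, differed by 0.44 (SE 0.23) and the iron exporter Slc40a1 by -0.43 (SE 0.27). Blvrb, a reductase of haem breakdown products, differed by -0.60 (SE 0.12, adjusted p = 0.379, limma), with no overlap between the groups. Over all 15 measured ligands and partners of the members, 7 differences were above 0 and the median was -0.04.

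**Figure D1:**
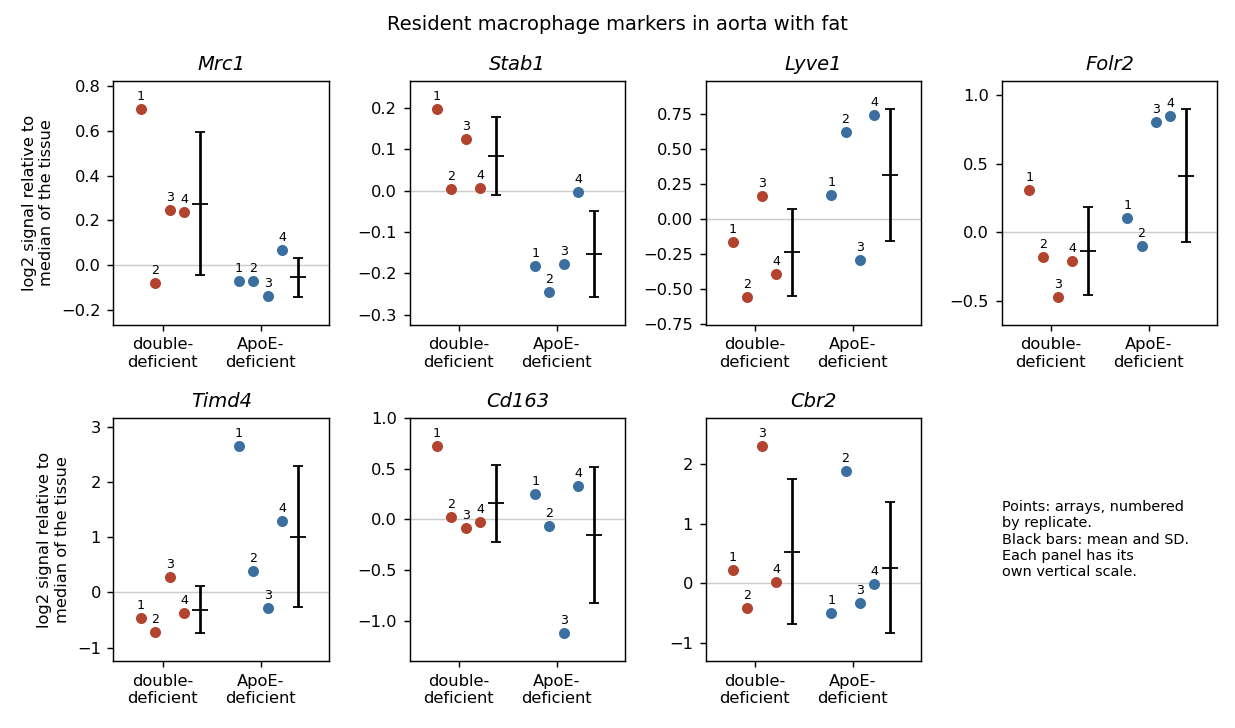
Log2 signal of the 7 members relative to the tissue median (vertical axis) in 4 double-deficient (left) and 4 ApoE-deficient (right) aortas; points are arrays numbered by replicate, bars are mean and SD, and vertical scales differ between panels. Stab1 is the 1 panel in which the groups do not overlap, and Cbr2 is high in 1 array of each group.

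The other 3 members, Lyve1, Folr2 and Timd4, averaged lower, and the groups overlapped for each of them. Lyve1, the receptor for the matrix sugar hyaluronan, was at -0.16, -0.55, 0.16 and -0.39 in double-deficient aortas, against 0.17, 0.62, -0.29 and 0.74 in ApoE-deficient aortas. ApoE-deficient replicate 3 was the low array of its group and lay inside the double-deficient range. The difference was -0.55 (SE 0.25, 95% interval -1.13 to 0.03, adjusted p = 0.657, limma), a 1.46-fold lower signal. Folr2, the folate receptor beta, was at 0.31, -0.18, -0.47 and -0.21 in double-deficient aortas, against 0.10, -0.10, 0.81 and 0.85 in ApoE-deficient aortas. Here ApoE-deficient replicates 3 and 4 were high, replicates 1 and 2 lay within the double-deficient range, and the difference was -0.55 (SE 0.26, 95% interval -1.15 to 0.05, adjusted p = 0.663, limma).

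Timd4, the phosphatidylserine receptor, had the largest difference among the members. It was at -0.46, -0.71, 0.29 and -0.38 in double-deficient aortas, against 2.66, 0.39, -0.29 and 1.30 in ApoE-deficient aortas. ApoE-deficient replicates 1 and 4 were far above the rest, and replicate 3 lay inside the double-deficient range. The group means of -0.31 ± 0.43 and 1.01 ± 1.27 (SD, n = 4 each) differed by -1.33 (SE 0.59, 95% interval -2.69 to 0.03, adjusted p = 0.654, limma; exact two-sided permutation p = 0.0571). Without ApoE-deficient replicate 1 the difference was -0.78. For each of Lyve1, Folr2 and Timd4 all 4 double-deficient arrays lay below the ApoE-deficient median, which was true of 14.3% of all genes. These 3 genes did not peak in the same ApoE-deficient arrays: Timd4 was highest in replicate 1, and Lyve1 and Folr2 in replicate 4, where Timd4 was second.

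Lymphocyte genes, like Timd4, averaged lower in the double-deficient aortas. The 9 measured B cell genes had a median difference of -1.70, all 9 were below 0, and 8 had an unadjusted p under 0.05 with a lower mean, as 3.81% of all genes did. Their mean ran from -0.43 to -0.18 in double-deficient aortas, against 1.28 to 2.18 in ApoE-deficient replicates 1, 2 and 4 and -0.12 in replicate 3. Cr2, the complement receptor of B cells and follicular stroma, differed by -2.41 (SE 0.64), and Cd22 by -1.70 (SE 0.41). The T cell list had all 10 genes below 0 and a median of -1.40, with means from -1.08 to -0.23 in double-deficient and from 0.11 to 1.23 in ApoE-deficient aortas. Timd4 was low in ApoE-deficient replicate 3, where the B cell mean was also low, but only 0.39 in replicate 2, where the B cell mean was highest. The part of lymphoid tissue in the Timd4 difference was not tested. Genes of serous cavity macrophages and mesothelium, another source of Timd4 in mice, had a median within 0.01 of 0 over 9 genes, with 4 above 0. Those with the smallest p were Gata6 (difference 0.26, SE 0.14), Selp (0.29, SE 0.32) and Icam2 (-0.15, SE 0.33).

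Cbr2 values followed another pattern. They were 0.22, -0.42, 2.30 and 0.02 in double-deficient aortas and -0.50, 1.88, -0.33 and -0.02 in ApoE-deficient aortas, so that 1 array of each genotype was far above its group, and the difference was 0.27 (SE 0.72, 95% interval -1.38 to 1.93, limma). Genes of airway and lung epithelium were high in the same 2 arrays. Of 19 such genes, listed after the Cbr2 values were seen and in part from the genes most like it, 18 had their highest 2 values in double-deficient replicate 3 and ApoE-deficient replicate 2, as 3.56% of all genes did. The list drew on the Cbr2 pattern itself, so this count was partly fixed in advance. The share of all genes is no independent comparison for it. The mean of the list was 3.14 in that double-deficient array and 3.14 in that ApoE-deficient array. It ran from -0.25 to 0.17 in the other double-deficient and from -0.33 to 0.03 in the other ApoE-deficient arrays. Among the 10 genes most like Cbr2 over the 8 aorta arrays were Cdh1, the epithelial cadherin (Pearson r = 0.99), and Dynlrb2, a dynein light chain of ciliated cells (r = 0.98). The part of airway tissue in the Cbr2 values was not tested. Without double-deficient replicate 3 alone the Cbr2 difference was -0.32, without ApoE-deficient replicate 2 alone it was 0.81, and without ApoE-deficient replicates 1 and 3 in turn it was 0.021 and 0.077. Without both arrays of high airway genes it was 0.22, and those of the other members were 0.19 for Stab1, 0.33 for Mrc1, 0.42 for Cd163, -0.58 for Lyve1, -0.61 for Folr2 and -1.74 for Timd4, with none passing the threshold.

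**Figure D2:**
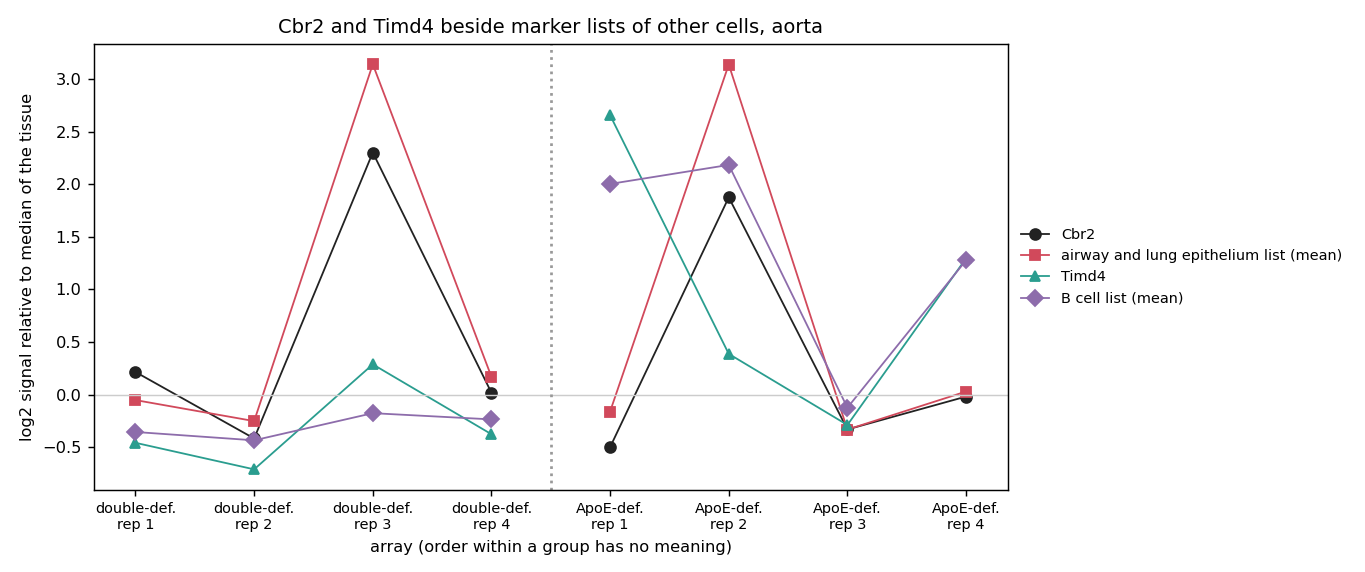
Log2 signal relative to the tissue median (vertical axis) in each aorta array, double-deficient left of the dotted line and ApoE-deficient right of it, for Cbr2, Timd4 and the means of the airway and B cell lists; lines join arrays of a group only to guide the eye. Cbr2 and the airway list are high in double-deficient replicate 3 and ApoE-deficient replicate 2, while Timd4 is highest in ApoE-deficient replicates 1 and 4.

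Other macrophage genes gave no uniform shift in the aorta. Of 26 measured genes of resident-type macrophages outside the members, 15 were above and 11 below 0 (median 0.03), 0 had an unadjusted p under 0.05 and a higher mean, and the 2 with a lower one were Cd209b and Marco. Cd209b, a lectin of marginal zone and lymph node macrophages, was lower without overlap between the groups (difference -1.77, SE 0.35, adjusted p = 0.379, limma), and the scavenger receptor Marco differed by -1.99 (SE 0.60). Cd36, a lipid scavenger receptor, was next by p with a difference of 0.11 (SE 0.06). The 16 general macrophage genes had a median of -0.09, with 6 above 0, and Tyrobp, an adaptor of myeloid receptors, had the smallest p (difference -0.47, SE 0.16, adjusted p = 0.547, limma). Mpeg1 differed by -0.73 (SE 0.43) and Itgam by 0.44 (SE 0.32). Their mean was 0.50, -0.39, 0.06 and -0.19 in double-deficient aortas, against 0.40, -0.001, -0.22 and 0.03 in ApoE-deficient aortas, so that the groups overlapped and double-deficient replicate 1, the array with the highest Mrc1, Stab1 and Cd163, was also highest here. Genes of foamy or inflammatory macrophages had a median of 0.06 over 13 genes. Of these the lysosomal protease Ctsd differed by 0.17 (SE 0.06) without overlap between the groups, the lipid-associated gene Gpnmb by 0.60 (SE 0.28) and the fatty acid binding protein gene Fabp5 by 0.26 (SE 0.16). Of 11 monocyte genes 5 were above and 6 below 0 (median -0.18). Treml4 differed by -0.65 (SE 0.13) and Ly6c2 by -1.07 (SE 0.39), whereas Fn1, which encodes fibronectin, differed by 0.28 (SE 0.13).

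Growth factors and relatives of the members were examined as well. Of 18 relatives 6 were above 0 (median -0.12), and 2 had an unadjusted p under 0.05 in each direction. Growth factors of macrophages and their receptors had a median of 0.01 over 11 genes, 6 of them above 0 and 0 with an unadjusted p under 0.05. The cytokine receptor chains Csf2rb, Il10ra and Il4ra had the smallest p, with differences of -0.36 (SE 0.17), -0.88 (SE 0.43) and -0.41 (SE 0.26). Csf1, which vascular smooth muscle makes for resident macrophages, differed by 0.04 (SE 0.31) and Il34, the other ligand of the CD115 receptor, by 0.12 (SE 0.25). Mrc2, the collagen-binding relative of Mrc1 in fibroblasts, differed by 0.24 (SE 0.09) with no overlap between the groups. Stab2, the sinusoidal relative of Stab1, differed by -0.70 (SE 0.28), opposite in sign to Stab1. Cbr1 differed by 0.21 (SE 0.08) and Cbr3 by 0.19 (SE 0.26), while Folr1, Cd5l, Cd209a and Msr1 differed by -0.009, -0.004, -0.15 and -0.29. Of the lymphatic endothelial genes, which share Lyve1, 4 of 9 were above 0 (median -0.09). Prox1, the transcription factor that defines lymphatic endothelium, differed by -0.60 (SE 0.21, unadjusted p = 0.0231 in limma, adjusted p = 0.564), Tbx1 by -0.18 (SE 0.14) and Nr2f2 by -0.10 (SE 0.12). The part of lymphatic vessels in the Lyve1 difference was not tested.

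The genes most like the mean of the 7 members over the 8 aorta arrays were Tlr1 (Pearson r = 0.96), a receptor of the innate immune system, Rgs19 (0.95), Fam102b (0.95), Vars (0.94), Actr6 (0.94), Rsbn1 (0.93), Sirt7 (0.92), Mrpl1 (0.92), Keap1 (0.91) and Dph5 (0.90). In all, 17 genes had an r over 0.9. These values describe likeness over 8 arrays that share 1 tissue and 2 genotypes. The mean is of unscaled values, so that members of large spread weigh most. In double-deficient and ApoE-deficient aortas the SD was 1.21 and 1.10 for Cbr2 and 0.43 and 1.27 for Timd4, against 0.09 and 0.10 for Stab1.

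The second comparison set the same genes in CD115+ blood cells, most of which are monocytes in a healthy mouse. All 7 members averaged lower in double-deficient preparations, with differences from -0.36 to -0.12 and a median of -0.21, which ran from -0.39 (without double-deficient replicate 1) to -0.12 (without double-deficient replicate 2) when 1 array was left out. A difference below 0 was found in 55.3% of all genes, whose median was -0.01. No member passed the adjusted threshold, and neither did any gene of the whole array (0% in limma, with 974 at an unadjusted p under 0.05). An exact permutation test of 3 against 3 preparations cannot give a p below 0.1.

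Timd4 was the 1 member whose groups did not overlap. It was at -0.02, -0.10 and -0.16 in double-deficient preparations, against 0.14, 0.02 and 0.19 in ApoE-deficient preparations. Such a separation downwards was seen in 5.23% of genes. The difference was -0.21 (SE 0.07, 95% interval -0.38 to -0.04, unadjusted p = 0.0211, adjusted p = 0.976, limma), and 2.33% of all genes had a lower mean with an unadjusted p under 0.05.

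The other 6 members shared 1 array pattern. Folr2 was at 0.32, -0.54 and -0.47 in double-deficient replicates 1 to 3, against -0.14, 0.40 and 0.14 in ApoE-deficient replicates 1, 3 and 4. Lyve1 was at 0.37, -0.38 and -0.54 in double-deficient preparations, against -0.01, 0.45 and 0.01 in ApoE-deficient preparations. Stab1 was at 0.13, -0.37 and -0.31 in double-deficient preparations, against -0.05, 0.07 and 0.05 in ApoE-deficient preparations. In each of these genes double-deficient replicate 1 stood high while replicates 2 and 3 stood below all ApoE-deficient preparations, so that the groups overlapped through 1 array. Mrc1 (0.34, -0.54 and -0.18 in double-deficient, against 0.07, 0.18 and -0.07 in ApoE-deficient cells) did the same. So did Cd163 (0.48, -0.36 and -0.26 in double-deficient, against -0.004, 0.23 and 0.004 in ApoE-deficient cells). Cbr2 was at 0.15, -0.37 and -0.34 in double-deficient, against -0.04, 0.04 and 0.08 in ApoE-deficient cells. Double-deficient replicate 1 lay above replicates 2 and 3 in 7 of 7 members, Timd4 included, and in 43.4% of all genes. Replicates 2 and 3 lay below every ApoE-deficient preparation in 7 of 7 members and in 19.9% of all genes. The pattern was described after the members' values were seen, so these counts were fixed in advance. The shares of all genes are no independent comparison for them.

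**Figure D3:**
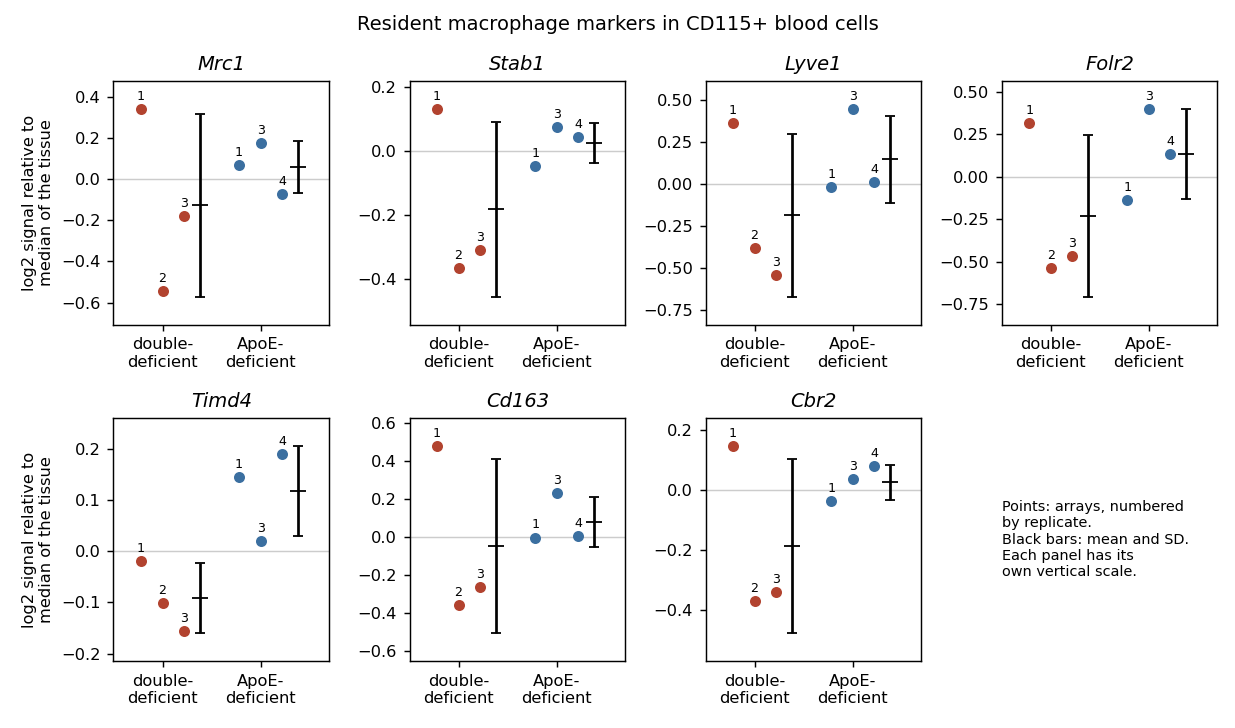
Log2 signal of the 7 members relative to the tissue median (vertical axis) in 3 double-deficient (left) and 3 ApoE-deficient (right) CD115+ preparations; points are arrays numbered by replicate, bars are mean and SD, and vertical scales differ between panels. Double-deficient replicate 1 lies above replicates 2 and 3 in all 7 panels, and Timd4 is the 1 panel without overlap.

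The differences were -0.36 for Folr2 (SE 0.26, 95% interval -1.01 to 0.29), -0.34 for Lyve1 (SE 0.27), -0.21 for Stab1 (SE 0.14), -0.21 for Cbr2 (SE 0.15), -0.19 for Mrc1 (SE 0.22) and -0.12 for Cd163 (SE 0.23), with an adjusted p of 0.976 or more for each in limma. Without double-deficient replicate 1 they were -0.64 for Folr2, -0.61 for Lyve1, -0.36 for Stab1, -0.38 for Cbr2, -0.42 for Mrc1 and -0.39 for Cd163, and still 0 members passed. Without double-deficient replicate 2 they were -0.21 for Folr2, -0.24 for Lyve1, -0.11 for Stab1 and -0.12 for Cbr2. In the same setting the Mrc1 difference was 0.022 and that of Cd163 0.031. Without double-deficient replicate 3 they were -0.24 for Folr2, -0.16 for Lyve1 and -0.14 for Cbr2. Lyve1 was at -0.19 and Folr2 at -0.23 without ApoE-deficient replicate 3. Leaving out both pooled preparations leaves 1 ApoE-deficient preparation, assumed in a fit of all arrays to vary like the other groups. The differences were then -0.09 for Folr2, -0.17 for Lyve1 and -0.24 for Timd4.

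Genes of connective tissue, muscle and fat had the same array pattern in these blood preparations. All 8 fibroblast genes, all 8 smooth muscle genes and all 9 adipocyte genes had differences below 0 (medians of -0.26, -0.17 and -0.16), and 0 of them had an unadjusted p under 0.05. Double-deficient replicates 2 and 3 lay below every ApoE-deficient preparation in 7 of the 8 fibroblast, 6 of the 8 smooth muscle and 8 of the 9 adipocyte genes. The same held for 5 of 8 endothelial, 6 of 9 lymphatic and 5 of 9 serous cavity genes. It held for 14 of 26 other resident-type macrophage genes, 4 of 16 general macrophage genes and 3 of 11 monocyte genes. The fibroblast mean was 0.19, -0.35 and -0.32 in double-deficient preparations, against -0.03, 0.15 and 0.09 in ApoE-deficient preparations, beside a mean of the members of 0.25, -0.38 and -0.32 in double-deficient preparations, against -0.003, 0.20 and 0.06 in ApoE-deficient preparations. The general macrophage genes were ordered otherwise, at -0.42, -0.18 and 0.21 in double-deficient preparations, against 0.17, -0.03 and 0.05 in ApoE-deficient preparations. The B cell mean was -0.30, 1.78 and 0.93 in double-deficient preparations, against 0.30, -0.90 and -0.84 in ApoE-deficient preparations. The part of connective tissue RNA or of B cells in the members' values was not tested.

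**Figure D4:**
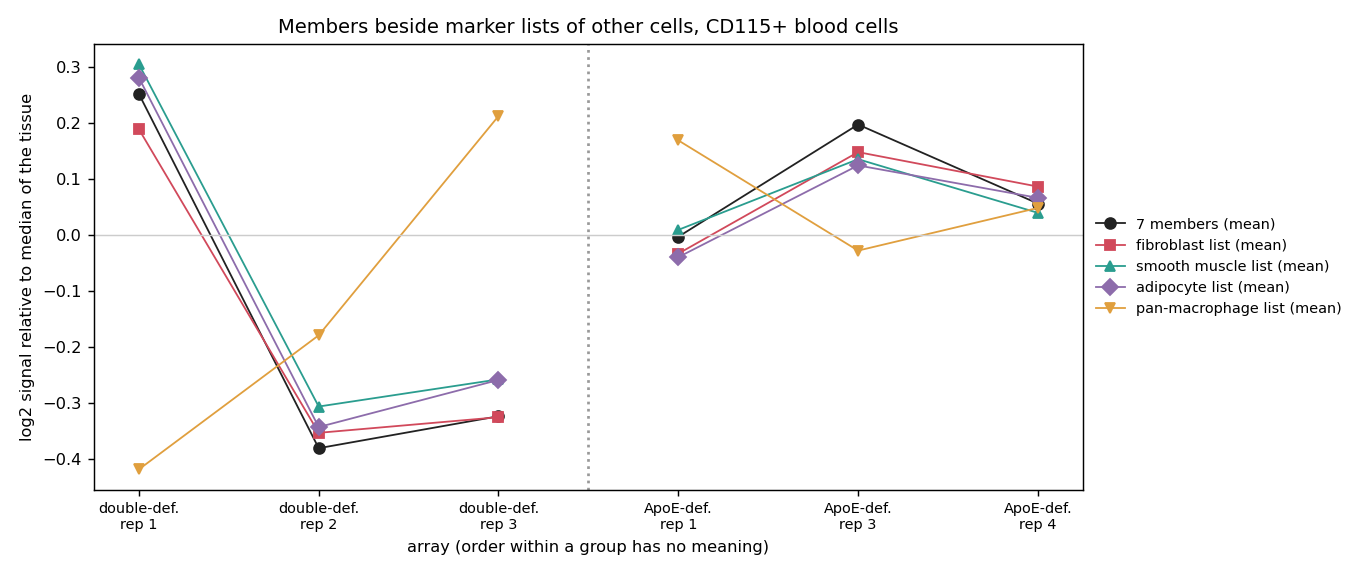
Log2 signal relative to the tissue median (vertical axis) in each CD115+ array, double-deficient left of the dotted line and ApoE-deficient right of it, as means of the 7 members and of the fibroblast, smooth muscle, adipocyte and general macrophage lists; lines join arrays of a group only to guide the eye. The members' mean stands beside the 3 connective tissue and fat lists in every array, while the macrophage list is lowest in double-deficient replicate 1.

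The genes most like the members' mean over the 6 CD115+ arrays were Ddr2, a collagen receptor, Wrap53, Gpx8, Dmd, which encodes dystrophin, Tmem45b, Csrp2, Plin1, which coats fat droplets, Gpnmb, Pcolce2 and Mgp, the matrix Gla protein of vessels and cartilage (Pearson r from 0.992 to 0.998). 1146 genes had an r over 0.9, so that the likeness was shared by many genes. Of 26 other resident-type macrophage genes 20 were below 0 in CD115+ cells (median -0.11). In that list 3 genes had an unadjusted p under 0.05 with a lower mean and 1 with a higher mean. Those with the smallest p were Siglec1 (difference -0.40, SE 0.12), Ninj1 (-0.25, SE 0.09) and Wfdc17 (-0.62, SE 0.23), each without overlap between the groups and with an adjusted p of 0.976 in limma. In the same list F13a1 (-0.44, SE 0.18) was also separated downwards and Ltc4s (0.23, SE 0.09) upwards. Separation downwards was seen in 5.23% of all genes and upwards in 872 of 22180. The 16 general macrophage genes had 4 differences above 0 and a median of -0.18, and the Fc receptor Fcgr1 differed by -1.07 (SE 0.32), Aif1 by -0.31 (SE 0.10) and Mertk, a receptor for dying cells, by -0.36 (SE 0.15). Monocyte genes had a median of -0.37 over 11 genes, 3 of them above 0, with Chil3 at -1.27 (SE 0.44), Vcan at -0.89 (SE 0.35) and Ly6c2 at -1.30 (SE 0.51). The mean of the monocyte genes was -0.80, -0.21 and 0.43 in double-deficient preparations. It was 0.39, -0.10 and 0.37 in ApoE-deficient preparations, so that the groups overlapped. Of 13 genes of foamy or inflammatory macrophages 5 were above 0 (median -0.07). The chemokine gene Cxcl2 had the smallest p of these and averaged higher in double-deficient cells (difference 0.95, SE 0.35, unadjusted p = 0.0349 in limma), while Trem2 and Fabp5 differed by -0.31 (SE 0.19) and -0.22 (SE 0.13).

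Growth factors and their receptors were above 0 in 8 of 11 genes in CD115+ cells (median 0.04), with Csf1 at 0.23 (SE 0.12), Il4ra at 0.16 (SE 0.15) and Il4 at 0.20 (SE 0.20). Ligands and partners of the members were above 0 in 3 of 15 genes (median -0.15). Mfge8, a bridge between dying cells and phagocytes, differed by -0.45 (SE 0.16) and the hyaluronan synthase Has1 by -0.15 (SE 0.08). Of 18 relatives 7 were above 0 (median -0.03). The scavenger receptor Msr1 differed by -0.45 (SE 0.13), Cbr1 by -0.34 (SE 0.16) and Folr1 by 0.14 (SE 0.04), the last without overlap between the groups. Lymphatic endothelial genes were above 0 in 2 of 9 genes (median -0.11), with Nr2f2 at -0.40 (SE 0.16), Prox1 at -0.17 (SE 0.07) and Tbx1 at -0.12 (SE 0.05). Serous cavity genes were also above 0 in 2 of 9 (median -0.05), with Msln at -0.13 (SE 0.06), Icam2 at 0.40 (SE 0.17) and Wt1 at -0.062 (SE 0.065).

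The last comparison tested whether the genotype difference itself differed between aorta and CD115+ cells. The fit assumed for each gene the same spread in both tissues, and samples independent of each other. The SD over probe sets, however, was 0.27 to 0.46 in aorta arrays and 0.13 to 0.25 in CD115+ arrays. The SE and p-values below rest on these assumptions. The members of opposite sign in the 2 tissues were Stab1, Mrc1, Cd163 and Cbr2, above 0 in aorta and below 0 in blood cells. Stab1 had the smallest p of the 7: its aorta difference was 0.44 higher than its CD115+ difference (SE 0.16, unadjusted p = 0.0150, adjusted p = 0.644, limma). For Mrc1 the aorta difference was 0.51 higher (SE 0.28, adjusted p = 0.770) and for Timd4 it was 1.12 below that of CD115+ cells (difference of differences -1.12, SE 0.73, adjusted p = 0.840). Lyve1 and Folr2 gave -0.21 (SE 0.39) and -0.19 (SE 0.40). Single arrays moved these values: Timd4 was at -0.57 without ApoE-deficient aorta replicate 1, and Mrc1 at 0.31 without double-deficient CD115+ replicate 2. Lyve1 and Folr2 were at 0.062 and 0.085 without double-deficient CD115+ replicate 1. Cd163, at 0.44 (SE 0.47), was at 0.11 without ApoE-deficient aorta replicate 3. Cbr2, at 0.49 (SE 0.90), was at -0.10 without double-deficient aorta replicate 3. Of all genes 0% passed the adjusted threshold and 6.9% had an unadjusted p under 0.05 in limma.

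**Figure D5:**
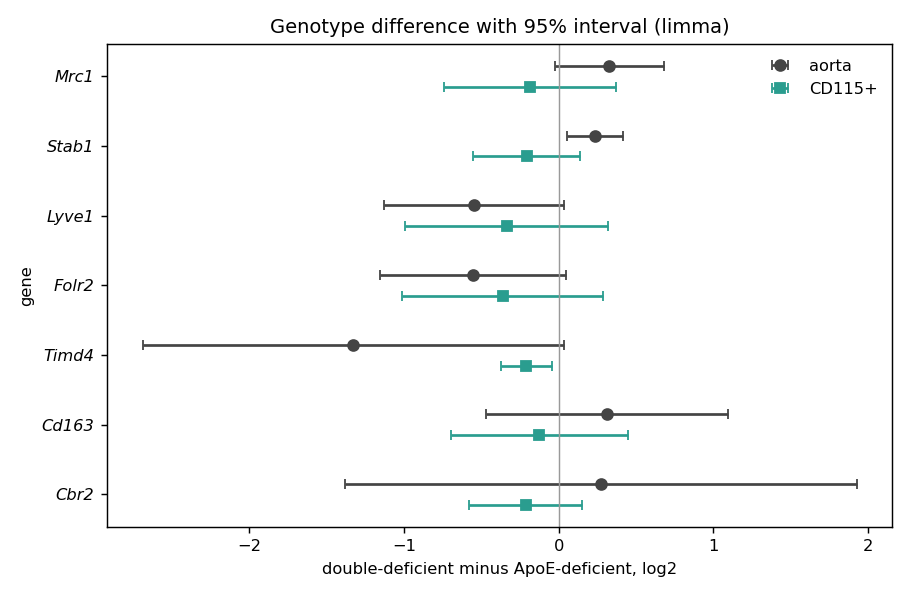
Genotype difference (double-deficient minus ApoE-deficient, log2, horizontal axis) of each member in aorta (circles, 4 against 4 arrays) and CD115+ cells (squares, 3 against 3 arrays); bars are 95% intervals from limma, not adjusted for the number of genes. The interval leaves out 0 for Stab1 in aorta and for Timd4 in CD115+ cells.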

How the data were processed

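RNA of 14 samples (8 aorta, 6 CD115+) was amplified from 1 ng and biotinylated, per the labels' protocols. The authors deposited log values, read here as log2, for 33793 probe sets. The sources used here give no log base, array normalization or probe summarisation. Every probe set had a median of 0 within 1e-06 in each tissue, so deposited values are centred and hold no level, background or detection. The direction was taken to be that of signal, as Ltbr was lower where deleted.

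The platform annotation paired 23521 probe sets with 1 symbol, 1814 with several and 8458 with none listed. Those with 1 symbol were averaged per gene. Each tissue was fitted alone over 22180 genes with limma 3.58.1 in R 4.3.3 (lmFit, eBayes, Benjamini-Hochberg, threshold 0.05), and the difference between tissues in 1 fit of 4 group means. Exact two-sided permutation tests covered single genes. The fits were tested on simulated data. No 2 arrays held identical values. The labels do not say that each sample was 1 animal, so p-values set group differences against the spread between these samples. Pooled preparations counted like the others in these fits.

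The members, gene lists and tests were chosen with earlier results of these data known. Lists are described by counts and medians and were not tested. Genes named are the members, Ltbr, the 3 of smallest p per tissue in each list of macrophage, monocyte, lymphatic and serous cavity genes, growth factors, ligands and relatives (lists of other cell types are given by counts), the 10 most like the members' mean (gene models, small RNAs, receptors of smell and taste and pseudogenes excepted) and named relatives. Il34, Cr2, Cd22, F13a1, Ltc4s, Lama4, Cdh1 and Dynlrb2, the genes of the rounding check, and the airway list were chosen after the data were seen. So were the CD115+ array pattern and the fit without 2 aorta arrays. The centring left no level for a filter or a mean-variance trend.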

Additional observations from a re-analysis of the deposited data

Results flagged for a closer look

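Of 16 groups of 4 aorta arrays examined (the 7 members and Ltbr in each genotype), 1 held an array far from the other 3 by Dixon's test: Cd163 in double-deficient replicate 1, at 0.73, where the other double-deficient aortas were at 0.02, -0.08 and -0.02 and the ApoE-deficient aortas at 0.25, -0.07, -1.12 and 0.33. The gap made up 0.869 of the range of the group, above the 95% critical value for 4 samples. Chance flags about 1 in 20 groups.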

How the results depend on the processing

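No member passed the adjusted threshold in aorta, in CD115+ cells or for the difference between them under any of the alternatives run. The number of genes called in aorta, 1 as reported, was 0 with robust eBayes, array weights or the probe set of largest SD, 7 among the 11090 genes of largest SD (fewer genes tested), 19 in 1 fit of all arrays, 0 without the 2 arrays of high airway genes, and 0 to 74 without 1 array, where 74 came without ApoE-deficient replicate 3. In CD115+ cells it was 2 among those of largest SD and 0 otherwise. The aorta median of the members, 0.24, was -0.14 among those of largest SD, which leave out Stab1, and ran from -0.32 to 0.26 without 1 array. That of CD115+ cells, -0.21, ran from -0.39 to -0.12. Without 1 array some members changed sign, none of them past the threshold. In aorta Cbr2 ran from -0.32 (without double-deficient replicate 3) to 0.81, and Cd163 from -0.011 (without ApoE-deficient replicate 3) to 0.47. In CD115+ cells Mrc1 ran from -0.42 to 0.022 and Cd163 from -0.39 to 0.031, both above 0 without double-deficient replicate 2. In the difference between tissues Cbr2 ran from -0.10 (without double-deficient aorta replicate 3) to 1.03, and Lyve1 from -0.41 to 0.062 and Folr2 from -0.36 to 0.085, both above 0 without double-deficient CD115+ replicate 1. Mrc1, Stab1, Lyve1, Folr2 and Timd4 kept their sign in aorta under every alternative that kept them. With the replicate number as a block the medians were 0.24 in aorta and -0.10 in CD115+ cells, and 0 members passed. Same-numbered aortas did not deviate together (correlations over genes of 0.17, -0.15, -0.14 and 0.06), nor did same-numbered CD115+ preparations (-0.47 and -0.29), so the numbers were not taken to pair samples. The mean-variance trend was not run, since centred values hold no level, and each member had 1 probe set, so splitting probe sets changed nothing for them. Signal over background is unknown, which limits every small difference given here.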
